A study of Mus musculus with 2 samples.

Results

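The microRNA genes Mir218-1 and Mir218-2 are the hairpins from which miR-218 is made in the mouse, and both lie in introns of Slit genes. They were taken by name from the microRNA rows of the hindbrain tables, 2 genes of 1973 rows. The study sequenced short RNA from whole hindbrain of mouse embryos of strain B6NCrl at embryonic day 13.5, healthy, with males and females pooled and no treatment or genetic change named. Its 2 libraries, biological replicates 1 and 2, form 1 group. The labels give them 1 donor identifier and different biosample identifiers. Whether the embryos of the replicates were of different litters is not stated. The differences between these samples may be biological, technical or both.

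A microRNA is cut from a hairpin as a short duplex, and either arm of the hairpin, named 5p or 3p, can be loaded into a silencing complex that pairs with messenger RNAs through the seed near the 5′ end of the microRNA. In the embryonic spinal cord and hindbrain, miR-218 is known as a microRNA of motor neurons, where it represses genes of other neuron types, and mice that lack both hairpins die around birth with failing neuromuscular function. Slit2 and Slit3, the host genes, encode secreted ligands that steer axons through Robo receptors. In motor neurons the hairpins are known to be transcribed from start sites inside the Slit genes as well as with the full host transcripts.

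The sequences are shown first because they decide which reads a hairpin's row can hold. The mature sequences, from RefSeq on GRCm38.p6, are given 5′ to 3′ with the seed, bases 2 to 8, in capitals.
miR-218-5p of both hairpins: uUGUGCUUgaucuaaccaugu
miR-218-1-3p of Mir218-1: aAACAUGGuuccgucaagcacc
miR-218-2-3p of Mir218-2: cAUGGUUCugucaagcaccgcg
The 5p arms were identical over all 21 nt, with 0 mismatches. The 3p arms had different seeds. In the alignment of the hairpins they overlapped by 19 nt with 1 difference, C12U, counted from 1 at the 5′ end of miR-218-1-3p with the base of miR-218-1-3p first.

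The seed of the 5p arm, UGUGCUU, occurred in 1 other gene among the 1058 with a mature sequence in the RefSeq table. That gene was Mir7002, whose miR-7002-3p is shown here to compare the bases after the seed: uUGUGCUUccccuugccag. Its row held 2 counts in replicate 1 and 0 in replicate 2, and 0 counts allow up to 3. The seed of miR-218-1-3p occurred in Mir496b, and that of miR-218-2-3p in no other gene of the table.

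The whole hairpins are shown with both mature arms in capitals, since the bases outside the 5p arm are those that tell the genes apart.
Mir218-1: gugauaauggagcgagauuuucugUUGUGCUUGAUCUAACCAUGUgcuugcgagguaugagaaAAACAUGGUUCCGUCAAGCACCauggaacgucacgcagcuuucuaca
Mir218-2: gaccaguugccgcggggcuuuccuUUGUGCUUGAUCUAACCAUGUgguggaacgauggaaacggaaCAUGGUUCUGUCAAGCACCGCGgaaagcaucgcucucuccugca
Each hairpin was 110 nt long, and 81 of 105 aligned bases were identical (77.1%). The 5p arm ran from position 25 to 45 in both, while the 3p arm ran from 64 to 85 in Mir218-1 and from 67 to 88 in Mir218-2. The longest stretch in common was 22 nt, from position 25 to 46, which is the 5p arm and the base after it. The next longest was 10 nt. Mir218-2 was richer in G and C, at 54.5% against 45.5%, and its predicted folding energy was lower, at -42.3 against -36.6 kcal/mol for Mir218-1.

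**Figure D1:**
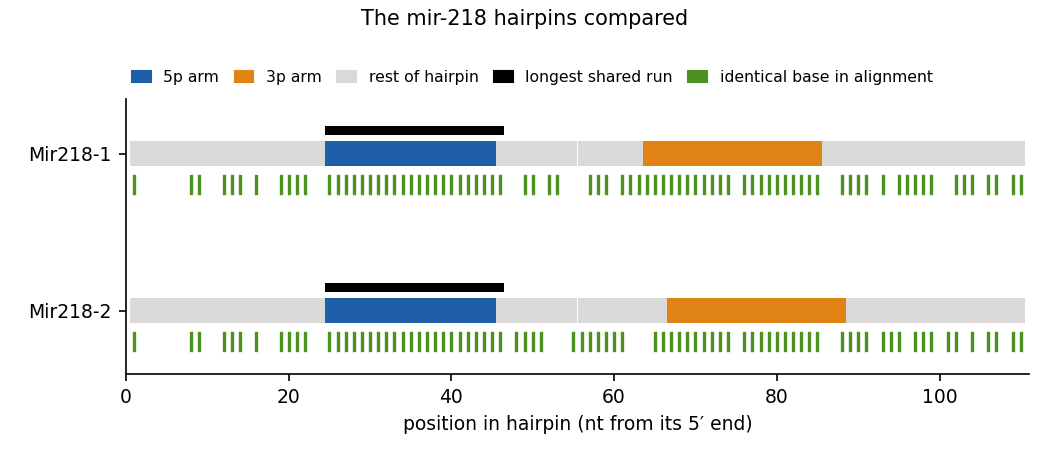
Map of the mir-218 hairpins by position in nt from the 5′ end, with the 5p arm in blue, the 3p arm in orange, the longest stretch in common as a black bar above, and each base that is identical in the alignment as a green tick below. The 22 nt stretch covers the 5p arm in both hairpins, while the 3p arms start 64 and 67 nt into the hairpin.

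For reads of the 5p arm this overlap bears directly on the counts, because reads that aligned to several places were set aside by the authors and are in no gene row. Of the 90 windows of 21 nt in each hairpin, 2 also occurred in another of the 2202 microRNA hairpins of GENCODE M21, among them the whole mature 5p arm. Of the 88 windows of 23 nt, 0 did. None of the 5 windows that start within 2 nt of the 3p arm was found in another hairpin at any length from 18 to 26 nt. The only other hairpin with which either member had a 20 nt stretch in common was its partner. A full-length miR-218-5p read therefore fits both genes equally well, and the values below are the reads that the authors' counting placed on 1 hairpin. Reads set aside as multimapping made up 33.9% of replicate 1 and 34.5% of replicate 2, and the part of them that came from mir-218 was not tested. Counts per arm were not analysed here.

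Mir218-1 (ENSMUSG00000065603.1) lies at chr5:48223942-48224051 on the plus strand of GRCm38, in intron 16 of the Slit2 transcript Slit2-217, which has 39 exons. The intron is 3662 nt long, and the hairpin begins 2951 nt after the exon before it and ends 601 nt before the next. An annotated Slit2 transcript of the class processed transcript, Slit2-206, begins 471 nt before the hairpin inside this intron and spans it.

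Mir218-2 (ENSMUSG00000065583.1) lies at chr11:35616816-35616925 on the plus strand, in intron 14 of Slit3-201, which has 36 exons. That intron is 9571 nt long, with 4379 nt before the hairpin and 5082 nt after it. The nearest annotated start of a Slit3 transcript upstream was 72.1 kb away, and that transcript did not reach the hairpin. Both hairpins lie in the later part of their host, 74.2% along the 325 kb of Slit2 and 84.4% along the 587 kb of Slit3. Neither overlapped an exon of any host transcript, and each was the 1 microRNA gene annotated within its host. Host gene transcripts were not measured by this assay.

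Levels are given as CPM, the reads on a gene per 1000000 reads on all gene rows of its library, and these rows held 3006571 counts in replicate 1 and 4508244 in replicate 2. One count was thus worth 0.333 and 0.222 CPM. Mir218-1 had 79 counts in replicate 1, or 26.3 CPM (exact Poisson 95% interval 20.8 to 32.7). In replicate 2 it had 125 counts, or 27.7 CPM (23.1 to 33.0). The libraries gave nearly the same level of the Slit2 hairpin, 27.0 ± 1.03 CPM (SD, n = 2), and each lay inside the counting interval of the other. These intervals cover counting error only, since reads without molecular identifiers are not independent molecules.

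Mir218-2 had 533 counts in replicate 1, or 177 CPM (163 to 193). In replicate 2 it had 711 counts, or 158 CPM (146 to 169.7). The Slit3 hairpin was therefore the higher one in both libraries, at 167 ± 13.8 CPM (SD, n = 2), and its lower library stood well above the higher library of Mir218-1. Together the hairpins had 204 CPM (188 to 220.3) in replicate 1 and 185 CPM (173 to 198) in replicate 2. Their sum of 194 ± 12.8 CPM was 0.0194% of the counts. On the opposite strand both hairpins had 0 counts in both libraries, which allows up to 0.998 CPM in replicate 1 and 0.665 CPM in replicate 2, so the reads lay on the strand of the Slit genes as far as this depth shows. In RNA from whole hindbrain, fewer cells of a type and less RNA per cell cannot be told apart.

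**Figure D2:**
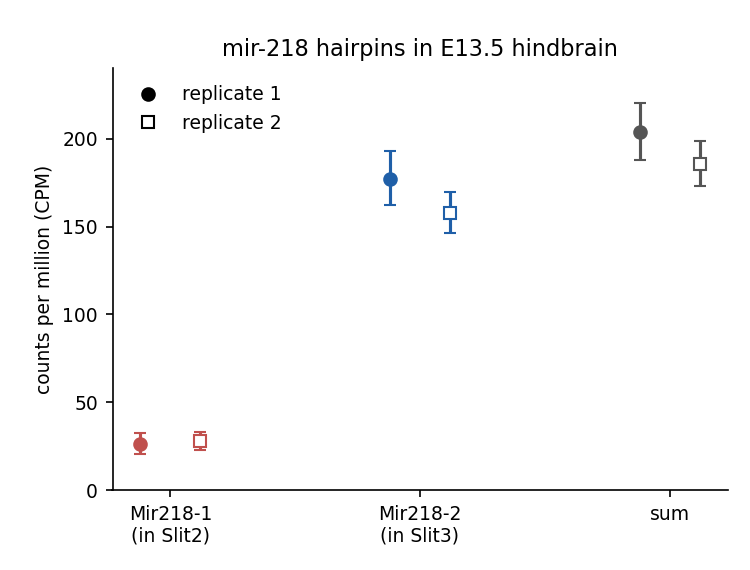
Level of each mir-218 hairpin and of their sum in CPM (vertical axis, starting at 0), with filled circles for replicate 1, open squares for replicate 2 and bars for the exact Poisson 95% interval of each library. Mir218-1 sits at 26.3 and 27.7 CPM, far below Mir218-2 at 177 and 158 CPM.

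The counts were divided unevenly between the hairpins. Of the mir-218 counts in replicate 1, 87.1% lay on Mir218-2 (533 of 612, exact Clopper-Pearson 95% interval 84.2% to 89.6%). In replicate 2 the share was 85.0% (711 of 836, 82.4% to 87.4%). The Slit3 hairpin thus had 6.75 times the counts of the Slit2 hairpin in replicate 1 (5.32 to 8.66) and 5.69 times in replicate 2 (4.70 to 6.94). Because both hairpins are 110 nt long, the ratio is the same per length.

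No difference of this split between the libraries passed the test. By Fisher's exact test, two-sided, the odds ratio was 0.843 (95% interval 0.614 to 1.15) with p = 0.285. Averaged over the libraries, 86.1% ± 1.45 of the counts lay on Mir218-2 (SD, n = 2). This split is one of reads that can be told apart, and how the reads of the common 5p arm divide between the genes was not tested.

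A gene was called detected where each library had at least 10 counts. Among the 356 detected genes, Mir218-2 ranked 178 by mean CPM and Mir218-1 ranked 270. The median detected gene had 166 CPM, so the Slit3 hairpin stood at the middle of the order, 1.01 times the median, and the Slit2 hairpin at 0.163 times. Ranked by CPM per nt of hairpin they moved down to 189 and 284. The order is one of counted reads, and 80 of the detected genes have a 20 nt stretch in common with another hairpin.

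The genes nearest in level to Mir218-2, the 3 above and 3 below it, ran from 174 to 157 CPM. Above it stood Mir148a at 174 ± 20.8 CPM, Mir199b at 173 ± 29.8 CPM and Mirlet7a-2 at 168 ± 21.0 CPM (SD, n = 2 for each). Mir155, a microRNA of activated immune cells, followed at 164 ± 30.9 CPM, then Mir494 at 159.6 ± 17.4 CPM and Mir700 at 157 ± 7.41 CPM. For 6 of these 6 the range of the libraries overlapped that of Mir218-2, so their order is not resolved.

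Around Mir218-1 the order ran from Mir181b-1 at 29.6 ± 4.78 CPM, Mir7689 at 27.9 ± 4.70 CPM and Mir574 at 27.7 ± 7.22 CPM down to Mir3078 at 26.2 ± 3.14 CPM, Mir196b at 26.0 ± 11.8 CPM and Mir3067 at 25.6 ± 1.40 CPM (SD, n = 2 for each). The Hox cluster gene Mir196b had 17.6 and 34.4 CPM in replicates 1 and 2, the widest range of these 6. All 6 overlapped Mir218-1, whose own range was the narrowest of the 7.

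**Figure D3:**
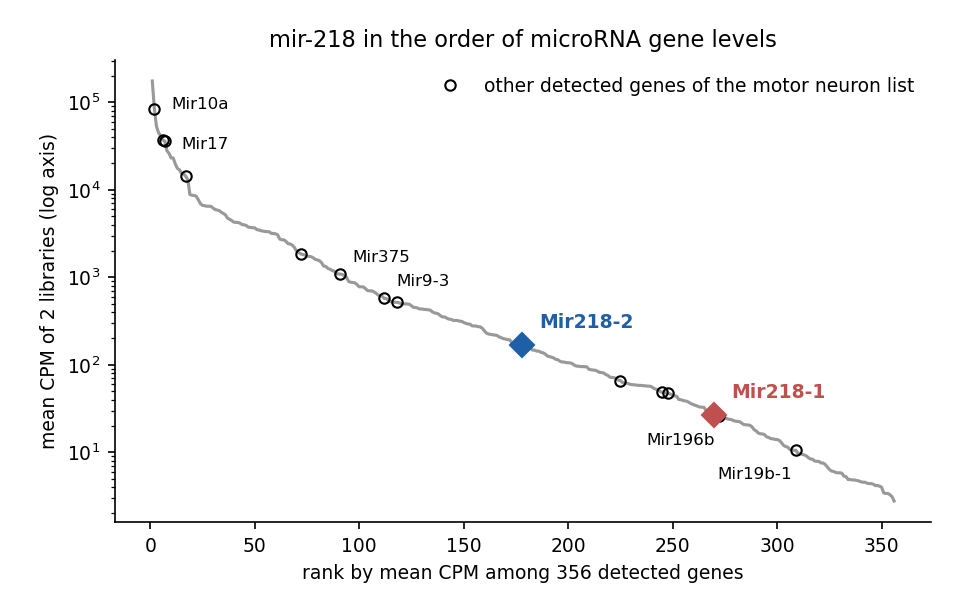
Mean CPM of the 356 detected microRNA genes (log axis) against their rank, with the mir-218 hairpins as diamonds and the other detected genes of the motor neuron list as open circles. Mir18, the row of the listed Mir18a, is not marked. Mir218-2 lies at rank 178 and Mir218-1 at rank 270, below Mir10a, Mir17, Mir375 and Mir9-3.

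A list of 23 microRNA genes with a described role in motor neurons or their innervation set the hairpins beside other such genes. Of these, 21 had a row under the listed name and 15 were detected, with a median of 518 CPM against 166 CPM over all detected genes. Mir218-2 ranked 9 and Mir218-1 ranked 13 of the 15. The listed Mir18a stands as Mir18 in the annotation used here, so it was missed by name and is in none of these values. Mir18 had a mean of 4743 CPM, above both mir-218 hairpins. The list was led by Mir10a at 84053 ± 12284 CPM and Mir10b at 37089 ± 4311 CPM, both of Hox clusters, and by Mir17 at 36088 ± 1368 CPM, of a polycistron active in dividing progenitors (SD, n = 2 for each). These 3 genes are known well beyond motor neurons, and none has an arm in common with another hairpin.

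Elsewhere in the list the levels spread widely. Mir375, known from endocrine cells and from motor neuron progenitors, had 1087 ± 121 CPM (SD, n = 2), or 6.49 times Mir218-2. Mir206, the skeletal muscle microRNA that acts at the neuromuscular junction, had 48.4 ± 22.3 CPM, 0.289 times Mir218-2 and 1.79 times Mir218-1. Mir375 and Mir206 were chosen after their values were seen.

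The neural families that, like mir-218, are made from several hairpins with an arm in common are the closest comparison, since their counting meets a limit of the same kind. Its extent differs between families, with a longest stretch in common of 22 nt for mir-218 and 32 nt for mir-124. In that list of 22 names, 19 had a row and 15 were detected, with a median of 322 CPM. The names Mir7a-1 and Mir7a-2 repeat Mir7-1 and Mir7-2, whose rows were counted, so their lack of a row is not an absence. Mir218-2 ranked 12 and Mir218-1 ranked 15, the lowest of the detected members, and the ranks were the same per nt of hairpin.

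The mir-138 hairpins, known from neurons where they act on dendritic spines, summed to 1315 ± 86.6 CPM (SD, n = 2), 6.76 times the mir-218 sum and 8.53 times it per nt of hairpin. Mir138-1 had 863 ± 23.3 CPM and Mir138-2 had 453 ± 63.3 CPM. The mir-219 hairpins, known from the oligodendrocyte lineage, summed to 3010.1 ± 81.9 CPM, 15.5 times the mir-218 sum and 17.4 times it per nt. Mir219a-2 had 2731 ± 103 CPM and Mir219a-1 had 279 ± 20.9 CPM. Both families were thus counted far above mir-218 in both libraries.

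The mir-128 hairpins, known from neurons, lay at 699 ± 33.9 CPM for Mir128-1 and 499.7 ± 45.4 CPM for Mir128-2 (SD, n = 2). Those of mir-7, known from neuroendocrine cells, lay at 444 ± 5.37 CPM for Mir7-1 and 229 ± 5.98 CPM for Mir7-2. Mir135a-1 had 322 ± 45.3 CPM and Mir135a-2 had 222 ± 40.8 CPM. Each of these hairpins was above Mir218-2 in both libraries. Mir129-2, at 95.4 ± 0.603 CPM, and Mir129-1, at 75.6 ± 11.4 CPM, lay between the mir-218 hairpins. Their sum of 171 ± 10.8 CPM was 0.879 times that of mir-218, but 1.18 times it per nt of hairpin, so the order of these families turns with the scale. The scale per nt divides by annotated hairpin length, 73 and 90 nt for Mir129-1 and Mir129-2 and 110 nt for each mir-218 hairpin. The labels give the size range of the RNA as <30, so hairpin length is not the length of the counted RNA.

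The mir-9 and mir-124 families, well known from neural tissue, had few counts on most of their hairpins. Mir9-3 had 573 ± 65.5 CPM while Mir9-2 had 3.16 ± 0.236 CPM (SD, n = 2). The copies Mir124a-1, Mir124a-2 and Mir124a-3 had 3.55 ± 2.20, 3.49 ± 1.65 and 1.22 ± 1.10 CPM. In these families the longest stretch in common was 26 nt between Mir9-2 and Mir9-3 and 32 nt between Mir124a-1 and Mir124a-2, against 22 nt for mir-218, 22 nt for mir-219 and 24 nt for mir-138. Mir129-1 and Mir129-2, which had 75.6 and 95.4 CPM, also had 26 nt in common. By annotated arms, Mir129-1 had 1 and Mir129-2 had 2, of which 1 in each occurred in another hairpin. Mir9-2 and Mir9-3 each had 2 arms, and both arms occurred in another hairpin. The part of shared sequence in these levels was not tested.

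**Figure D4:**
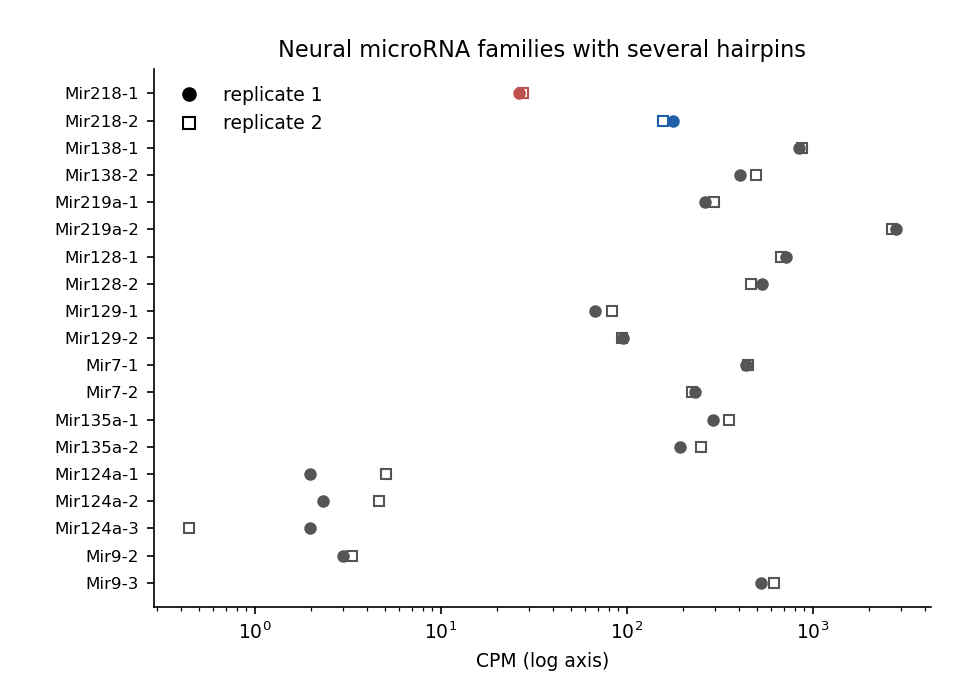
CPM (log axis) of each hairpin of neural microRNA families that have several hairpins, with filled circles for replicate 1 and open squares for replicate 2. Mir218-1, at 26.3 and 27.7 CPM, lies below every other copy shown except the Mir124a copies and Mir9-2.

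In how unevenly the hairpins were counted, mir-218 lay between its closest comparisons. The more abundant copy held 86.1% ± 1.45 of the mir-218 counts, 65.7% ± 2.55 of the mir-138 counts and 90.7% ± 0.948 of the mir-219 counts (SD, n = 2 for each). Within each library these shares differed beyond counting error by Fisher's exact test, two-sided, with Benjamini-Hochberg adjustment over 4 comparisons. Against mir-138 the share was 19.6 percentage points higher in replicate 1 (adjusted p = 2.03e-25) and 21.2 points higher in replicate 2 (adjusted p = 1.76e-37). Against mir-219 the difference was -4.30 percentage points in replicate 1 (adjusted p = 0.00054, Fisher's exact test) and -5.00 in replicate 2 (adjusted p = 1.64e-05). These tests compare reads within a library and hold no error beyond counting. Between the libraries, the share was 67.5% and 63.9% for mir-138 and 91.4% and 90.1% for mir-219. These shares also differed beyond counting error, with adjusted p = 0.0022 and 0.0031 (Fisher's exact test, Benjamini-Hochberg over 9 families).

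Neither hairpin passed the comparison of the libraries with adjusted p-values. With trimmed-mean (TMM) scaling, the log2 ratio of replicate 2 over replicate 1 was 0.06 for Mir218-1 (95% counting interval -0.35 to 0.49) and -0.18 for Mir218-2 (-0.35 to -0.02). Each gene was compared between the libraries by an exact binomial test, two-sided, and p-values were adjusted by Benjamini-Hochberg over all 356 detected genes. Of the mir-218 hairpins, 0 of the 2 hairpins passed the threshold of 0.05, while 161 genes, 45.2% of those tested, did. The adjusted p was 0.876 for Mir218-1 and 0.0631 for Mir218-2, and at an unadjusted p 1 of the 2 hairpins, Mir218-2 with 0.0298, was under 0.05. Counted on either strand, the adjusted p of Mir218-2 in the same test became 0.0479 and passed. That choice leaves the counts of these genes as they are, but changes the library sizes and can change the set of genes tested.

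That test holds no error beyond counting. The common biological coefficient of variation of the libraries, estimated with edgeR, was 0.141, and the median detected gene moved by 0.17 on the log2 scale in 1 direction or the other. A ratio at least as far from 0 as that of Mir218-2 was found in 47.5% of the detected genes, and one as far as that of Mir218-1 in 80.6%. With edgeR's exact test at the estimated variation, 0 of the 2 hairpins and 1.4% of the genes passed, and the unadjusted p was 0.552 for Mir218-2 and 0.87 for Mir218-1. The variation came from the same difference that was then tested, so a low count of calls was built in and says nothing about whether the hairpins differ. With 1 library on each side these tests rank genes and compare libraries, not conditions.

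**Figure D5:**
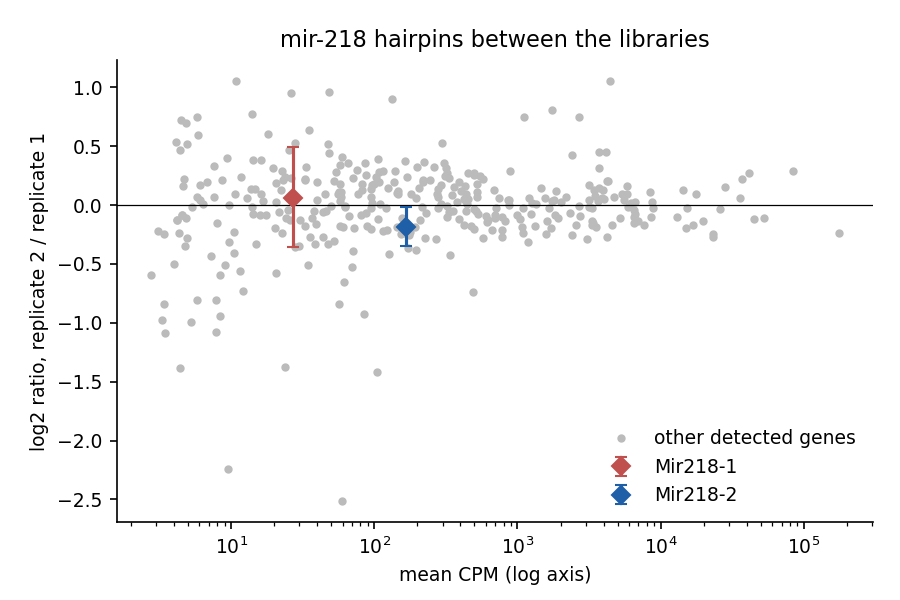
Log2 ratio of replicate 2 over replicate 1 with TMM scaling (vertical axis) against mean CPM (log axis) for the detected microRNA genes, with the mir-218 hairpins as diamonds and bars for their 95% counting intervals. Both hairpins, at 0.06 and -0.18, lie within the cloud of the other genes in grey.

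Of the 15 detected genes of the motor neuron list, 11 passed the exact binomial test as higher and 1 as lower, where 22.5% and 22.8% of all detected genes did. Their median log2 ratio was 0.13, against 0.01 over all detected genes, and the mir-218 hairpins were not among the 12. Of the 11, Mir17, Mir19a, Mir20a and Mir92-1, the last 3 named here after their values were seen, share the mir-17 polycistron and are not independent. Mir18, missed by name, is not in these counts (log2 ratio 0.07, adjusted p = 9.18e-05, exact binomial test). The test passes small ratios in genes with many counts, such as Mir17 at a log2 ratio of 0.06. The list has a median of 518 CPM against 166 CPM, so the shares over all detected genes are not a base of like depth. In the list of multi-hairpin neural families 5 were higher and 3 lower, with a median of 0.04.

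Markers of the tissue and of other cell types put these values in context. The Hox cluster genes Mir10a and Mir10b, listed for hindbrain position, summed to 109408 CPM in replicate 1 and 132876 CPM in replicate 2. Of the 6 neuronal markers 3 were detected, with Mir137 at 6207 ± 105 CPM and Mir153 at 1579 ± 180 CPM (SD, n = 2), and the list summed to 8569 and 8418 CPM. Of the 3 detected, Mir137 was higher in replicate 2, at 6132 and 6281 CPM. Mir153, at 1707 and 1451 CPM, and Mir128-1, at 723 and 675 CPM, were lower. Endothelial and mural markers, 3 of 4 with a row, summed to 27312 and 25286 CPM, with Mir126a at 19729 ± 1148 CPM and Mir143 at 6489.97 ± 281 CPM. Mesenchyme and cartilage markers, 4 of 5 detected, summed to 4539 and 3844 CPM, with Mir140 at 3512 ± 292 CPM and Mir214 at 491 ± 170.5 CPM.

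The 3 blood markers summed to 314 CPM in replicate 1 and 231 CPM in replicate 2. Of these, Mir451a went from 152 to 57.5 CPM, while Mir144 had 20.3 and 20.9 CPM and Mir223 had 141 and 152 CPM. The heart markers, 2 of 3 detected, summed to 119 CPM in replicate 1 and 24.8 CPM in replicate 2, with Mir208b at 100.4 and 17.7 CPM. In the skeletal muscle list, which summed to 32.9 and 65.2 CPM, 1 of the 5 genes with a row was detected, Mir206, at 32.6 and 64.1 CPM. Mir1a-1, Mir133a-1 and Mir133a-2 had 0 counts in both libraries, which allows up to 3 counts each. These hairpins have 9, 17 and 17 stretches of 20 nt in common with other hairpins, so their zeros are uncertain. In value, Mir218-2 and the summed neuronal, heart, mesenchyme, endothelial and blood markers were lower in replicate 2. The sum of Mir10a and Mir10b and that of the skeletal muscle markers were higher. Some genes went against their sum, such as Mir137, Mir144 and Mir223. The part of these markers in the ratio of Mir218-2 was not tested.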

How the data were processed

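Short RNA from embryonic hindbrain was measured in 2 libraries, and the labels give their size range as <30. The deposited tables hold raw read counts per microRNA gene, aligned to mm10 and counted by the authors on GENCODE M4, per the README text deposited with them. Aligner, counter and trimming were not given in the sources used here. Every table has 3 count columns. The third column of the file, taken as the annotated strand because 98.1% of gene reads lay in it in both replicates, was used. Multimapping and other summary rows stayed out of library sizes: gene rows held 49.0% of 6141045 reads in replicate 1 and 47.5% of 9486700 in replicate 2.

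Identifiers were named with GENCODE M21 on GRCm38, which mm10 also denotes, and 1894 of 1973 matched. Sequences came from RefSeq, where both members matched, and hairpins from GENCODE M21. Other places in the genome were not searched. Hairpins were aligned with Biopython 1.88 and folded with RNAfold 2.7.2. CPM used library totals. The libraries were compared with edgeR 4.0.16 (TMM) and exact tests in scipy 1.17.1. With 1 group no quasi-likelihood test could be run. The exact binomial comparison was also run on simulated counts with counting error only and known library sizes. That setting lacks the further variation of these libraries, so it does not show how the test behaves on them. Alternatives were DESeq2 1.42.0 size factors, other filters, strands and denominators.

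Members, lists and rules were chosen with earlier results of these data known. Named genes were the members, the 3 detected genes on either side of each in mean CPM, up to 3 detected genes of each list or marker set, and all copies of the multi-hairpin neural families. Outside this rule, Mir375, Mir206 as a motor neuron gene, Mir18, Mir19a, Mir20a, Mir92-1, Mir1a-1, Mir133a-1, Mir133a-2 and Mir7002 were named after their values were seen.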

Additional observations from a re-analysis of the deposited data

How the results depend on the processing

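Of 47 values recomputed for 9 results, 36 kept their size or their side of the threshold and 0 turned direction. Some of them could not change. The share on Mir218-2 stays at 86.1% with either-strand counts and per nt, since the opposite strand held 0 counts and both hairpins have 110 nt. A replicate left out gives back the value of the other. With all reads of a file as the denominator, the summed mir-218 level was 93.9 CPM in place of 194 CPM, a change that the larger denominator makes by construction. Left out in turn, the replicates gave a sum of 185 to 204 CPM, a share of Mir218-2 of 85.0% to 87.1%, and ranks of 175 to 179 for Mir218-2 and 270 to 271 for Mir218-1. The 161 genes past the exact binomial test became 5 with edgeR's exact test at the estimated variation, which takes its spread from the same difference it tests, so that few calls are built in. Under the other scalings, strand column and filter they numbered 153 to 170. With 2 libraries, leaving out 1 gave no ratio between libraries. Among detected genes with no 20 nt stretch in common with another hairpin, plus the member, Mir218-2 ranked 134 and Mir218-1 ranked 208 of 277. Depth limits Mir218-1 most: with 79 and 125 counts, its counting interval reached 0.49 on the log2 scale.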

Other observations

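Over the whole tables, 916 gene rows had mature arms in the RefSeq table. Among genes with 2 annotated arms, 56 had 1 arm whose whole sequence also occurred in another hairpin, as the mir-218 hairpins do. Of these, 34 were detected (60.7%), with a median of 225 CPM. Over all 916 rows with any number of arms, 325 were detected (35.5%). Mir218-2 ranked 20 and Mir218-1 ranked 29 among the 34. Of 507 genes with no arm in common, 237 were detected (46.7%), with a median of 178 CPM, and of 19 with both arms in common, 4 were detected (21.1%). These are descriptions of genes in these libraries, which are not replicates, and the classes were chosen after the data were seen.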
